A study of Saccharomyces cerevisiae with 2 samples.

Results

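The genes described here are 42 budding yeast (Saccharomyces cerevisiae) genes for DNA replication: the 6 MCM helicase genes, the 6 genes of the origin recognition complex (ORC), 7 loading and firing factors, the 4 GINS genes, and 19 genes for polymerases, primase, the sliding clamp and its loader, the single-strand binding protein RPA, and Okazaki fragment processing. They were chosen by name, and all 42 were found among the 6603 open reading frames (ORFs) of the deposited count files. RNA was sequenced from strain CY3003, which carries tra1-L3733A, and from strain CY2706, with wild-type TRA1. Both were grown at 30 °C in YP medium with 2% glucose to an A600 of 2.0, and the labels name no other allele of either strain. Tra1 is a subunit of the SAGA and NuA4 histone acetyltransferase complexes, and the series' design text asks how expression differs in tra1-L3733A. Each strain is represented by 1 library, so every difference below compares these libraries and has no replicate check.

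Replication begins when ORC, bound to an origin, works with Cdc6 and Cdt1 to load the Mcm2-7 ring onto DNA in G1 phase. In S phase the kinases CDK and Cdc7-Dbf4, with Sld2, Sld3 and Dpb11, add Cdc45 and GINS to the ring and so start the active helicase. The fork is then copied by polymerases alpha, epsilon and delta, with the clamp PCNA, its loader RFC, and RPA on exposed single strands. Many of these genes are transcribed in a burst around the G1/S transition, which the factors MBF and SBF drive, while some MCM genes and CDC6 peak earlier, at the end of mitosis, through the factor Mcm1.

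The tra1-L3733A library held 9970836 counts and the TRA1 library 11564964. TRA1 itself had 5102 reads in tra1-L3733A and 12035 in TRA1, a ratio of 0.526 (95% counting interval 0.509 to 0.544), which does not check the labels because the allele is a substitution. Ratios are tra1-L3733A over TRA1, with library sizes scaled by TMM (trimmed mean of M-values). Every interval in parentheses after a ratio is an exact 95% interval that covers counting error only. An ORF counted as higher or lower when 3 conditions were met: at least 20 summed reads, a difference of 1.5-fold or more, and an interval leaving out 1. In bulk RNA, a different share of cells in a cell cycle phase and a different amount of mRNA per cell cannot be told apart.

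None of the 42 genes passed that rule. By their intervals, the MCM helicase, clamp and clamp loader genes stood modestly above 1, as did ORC4, POL1 and RFA1. CDC6, SLD3, PSF3, ORC6, POL2, ORC1 and RAD27 stood below 1. Of the 42 members, 0 were higher and 0 lower, while 2.80% of the 6248 tested ORFs were higher and 5.46% lower. With total counts or lane reads as the scale the members' counts stayed at 0, while 1.46% and 1.57% of tested ORFs were higher and 8.24% and 8.003% lower. The members' ratios ran from 0.724 for SLD3 to 1.43 for POL30. The median log2 ratio was 0.14 over the members and -0.002 over all tested ORFs. Of the 42 log2 ratios, 27 (64.3%) lay above 0, against 49.6% of all tested ORFs. Intervals lay wholly above 1 for 15 members (35.7%) and wholly below 1 for 7 (16.7%), against 24.2% and 25.5% of all tested ORFs. Those of the other 20 (47.6%) held 1, against 50.3%. With total counts as the scale 12 members lay above and 10 below, against 14.5% and 35.8% of tested ORFs, and with lane reads 12 above and 9 below, against 15.2% and 34.8%. All members had enough reads to be tested, with 148 to 2068 per gene in tra1-L3733A and 161 to 2040 in TRA1. Together they held 0.240% of the counts in tra1-L3733A (exact binomial interval 0.237 to 0.243%) and 0.228% in TRA1 (0.226 to 0.231%).

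**Figure D1:**
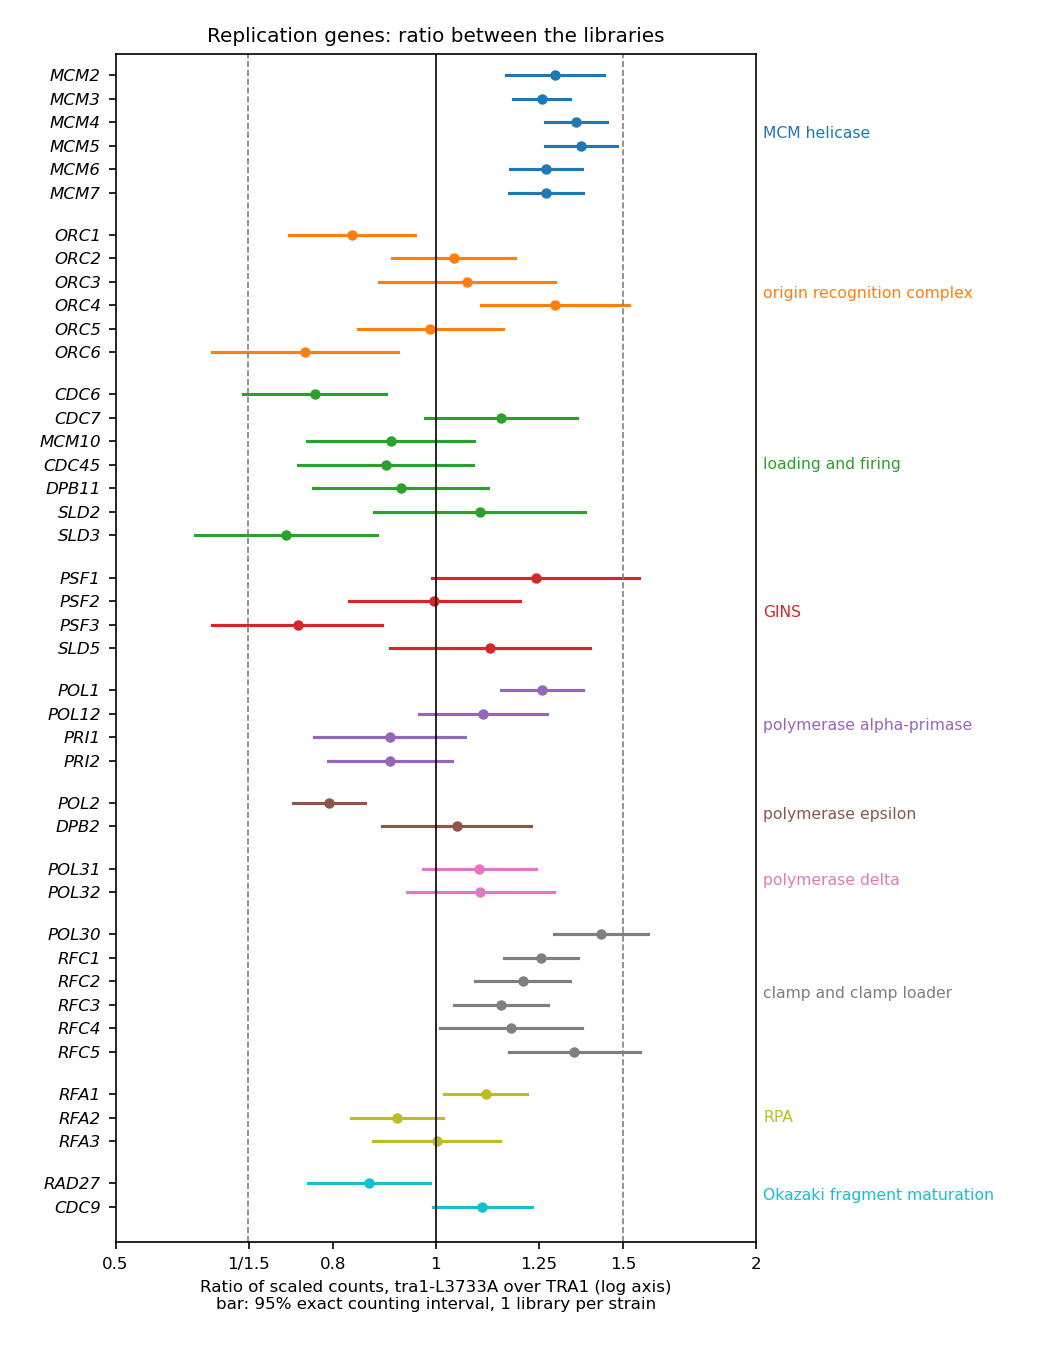
Ratio of tra1-L3733A over TRA1 for each of the 42 genes (points, log axis) with 95% exact counting intervals (bars), grouped by role; dashed lines mark 1.5-fold either way. All 6 MCM genes and all 6 clamp and clamp loader genes sit to the right of 1, and no point reaches a dashed line.

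The 6 subunits of the Mcm2-7 helicase were close to each other in ratio. MCM2 (YBL023C) lies on chromosome II at 174923 to 177529, in coordinates of the files, and had 717 reads in tra1-L3733A and 688 in TRA1, a ratio of 1.29 (1.16 to 1.44). MCM3 (YEL032W, V, 86937 to 89852) had 2068 and 2040 reads in tra1-L3733A and TRA1, a ratio of 1.26 (1.18 to 1.34). MCM4 (YPR019W, XVI, 596747 to 599548) had 1836 reads in tra1-L3733A and 1683 in TRA1, at 1.35 (1.27 to 1.45). The ring holds 1 copy of each of the 6 proteins, and each is essential for growth. MCM5 (YLR274W, XII, 691557 to 693884) had 1346 reads in tra1-L3733A and 1220 in TRA1, and the highest ratio of the ring at 1.37 (1.27 to 1.48). MCM6 (YGL201C, VII, 117858 to 120911) had 1304 reads in tra1-L3733A and 1275 in TRA1, at 1.27 (1.17 to 1.37). MCM7 (YBR202W, II, 625767 to 628304) had 1224 reads in tra1-L3733A and 1197 in TRA1, at 1.27 (1.17 to 1.38). The 6 intervals shared the values from 1.27 to 1.34, and every interval lay above 1, also when libraries were scaled by their total counts (ratios of 1.18 to 1.28) or by their lane reads (1.18 to 1.29). Among all tested ORFs the 6 log2 ratios stood between percentiles 88.0 and 93.5. MCM3 contains the small ORF YEL032C-A, whose 162 bases had 96 reads in tra1-L3733A and 117 in TRA1. It is 1 of 6 members that overlap another listed ORF, as 18.7% of tested ORFs do. With a smaller threshold, a ratio of at least 5/4, all 6 counted as higher. That threshold put 11 of the 42 members higher, against 10.7% of tested ORFs, and 5 of the 42 lower, against 14.4%.

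The genes that bind origins did not share that pattern. ORC1, the largest subunit of ORC and an ATPase, had 357 reads in tra1-L3733A and 531 in TRA1, a ratio of 0.835 (0.728 to 0.956). ORC6, the subunit that contacts Cdt1 during MCM loading, had 161 reads in tra1-L3733A and 265 in TRA1, at 0.754 (0.616 to 0.921). ORC4, another subunit of the ORC ring, went the other way, with 320 reads in tra1-L3733A and 307 in TRA1 and a ratio of 1.29 (1.10 to 1.52). On all reads the intervals of ORC4 and ORC6 did not overlap, so subunits of this complex differed between the libraries by more than counting error. On reverse reads alone these intervals overlapped. ORC6 rested on forward reads, at 0.603 (0.444 to 0.814), since its reverse reads gave 0.919 (0.696 to 1.21). ORC1 rested on reverse reads, at 0.758 (0.625 to 0.917), since its forward reads gave 0.928 (0.761 to 1.13). The intervals of the other ORC genes held 1, with ORC2 at 1.04 (0.910 to 1.19), ORC3 at 1.07 (0.885 to 1.30) and ORC5 at 0.988 (0.845 to 1.16). The ORC5 ratio was 1.23 (0.984 to 1.53) on forward reads and 0.791 (0.628 to 0.992) on reverse reads, so its direction depended on the reads used.

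Of the loading and firing factors, 5 of 7 log2 ratios lay below 0. CDC6, the ATPase that joins ORC to load the MCM ring, had 271 reads in tra1-L3733A and 437 in TRA1, a ratio of 0.770 (0.659 to 0.898). SLD3, which brings Cdc45 to the loaded ring, had 165 reads in tra1-L3733A and 283 in TRA1, and the lowest ratio of the 42 genes at 0.724 (0.594 to 0.880). Forward reads put SLD3 at 0.825 (0.620 to 1.09), an interval that held 1, and reverse reads at 0.641 (0.483 to 0.845). CDC7, the kinase that phosphorylates the ring, had 285 reads in tra1-L3733A and 307 in TRA1, at 1.15 (0.977 to 1.36). SLD2, which binds the scaffold protein Dpb11 once phosphorylated, had 148 and 167 reads in tra1-L3733A and TRA1, at 1.10 (0.876 to 1.38). The helicase cofactor CDC45 was at 0.897 (0.742 to 1.08), the scaffold DPB11 at 0.927 (0.766 to 1.12) and MCM10, which acts in helicase activation and is no part of the ring, at 0.907 (0.757 to 1.09). Intervals lay below 1 for CDC6 and SLD3 and above 1 for no gene of the group. The summed reads of the 7 genes gave a ratio of 0.906 (0.847 to 0.970), against 1.30 (1.26 to 1.34) for the 6 MCM genes. Summed over all tested ORFs, the reads gave 1.07. The intervals of the 7 genes shared no single value, so the interval on their sum does not cover the spread between them. The CDC6 ORF shares 605 of its 1542 bases with YJL195C, whose ratio was 0.874 (0.702 to 1.09), and their reads cannot be separated there.

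GINS is a complex of 4 small proteins that moves with the helicase. PSF3 had 190 reads in tra1-L3733A and 318 in TRA1, a ratio of 0.742 (0.616 to 0.891). PSF1, in contrast, had 161 reads in each library, which after scaling gave 1.24 (0.992 to 1.55). PSF2 was at 0.997 (0.828 to 1.20) on 212 reads in tra1-L3733A and 264 in TRA1. SLD5 was at 1.12 (0.905 to 1.40) on 164 reads in tra1-L3733A and 181 in TRA1. On all reads the interval of PSF3 did not overlap those of PSF1 and SLD5, so the 4 subunits did not share a single ratio within counting error. On forward reads PSF3 was at 0.811 (0.619 to 1.06), an interval that held 1 and overlapped those of PSF1 and SLD5. On reverse reads PSF3 was at 0.685 (0.528 to 0.884), which overlapped the interval of SLD5 but not that of PSF1.

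Polymerase genes were split as well. POL1, the catalytic subunit of polymerase alpha, which starts each strand with primase, had 998 reads in tra1-L3733A and 984 in TRA1, a ratio of 1.26 (1.15 to 1.38). Its partner POL12 was at 1.11 (0.965 to 1.27), and the primase genes PRI1 and PRI2 were at 0.905 (0.769 to 1.06) and 0.906 (0.792 to 1.04). The interval of POL1 lay above those of both primase genes, whose intervals held 1 with TMM scaling. With total counts as the scale, both primase intervals lay below 1, and with lane reads 1 of them did. POL2, the catalytic subunit of polymerase epsilon, which copies the leading strand, had 1077 reads in tra1-L3733A and 1684 in TRA1, a ratio of 0.794 (0.735 to 0.858). POL2 is the longest of the 42 ORFs at 6669 bases, and its forward reads gave 0.699 (0.623 to 0.783) and its reverse reads 0.891 (0.801 to 0.990). Both directions lay below 1, but their intervals did not overlap, so the interval on all reads is too narrow. Its partner subunit DPB2 was at 1.05 (0.890 to 1.23). The accessory subunits of polymerase delta, which copies the lagging strand, were alike, POL31 at 1.10 (0.972 to 1.24) and POL32 at 1.10 (0.939 to 1.29).

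Every ratio of the clamp and its loader lay above 1, as it did for the MCM genes and both polymerase delta genes. POL30, which encodes PCNA, the ring that ties polymerases to DNA, had 811 reads in tra1-L3733A and 704 in TRA1, and the highest ratio of the 42 genes at 1.43 (1.29 to 1.58). RFC1, the large subunit of the clamp loader, had 1238 reads in tra1-L3733A and 1223 in TRA1, at 1.26 (1.16 to 1.36). RFC5, a small loader subunit, had 413 reads in tra1-L3733A and 380 in TRA1, at 1.35 (1.17 to 1.56). The other small subunits were RFC2 at 1.21 (1.09 to 1.34), RFC3 at 1.15 (1.04 to 1.27) and RFC4 at 1.18 (1.01 to 1.37). All 6 intervals lay above 1 with TMM scaling and 4 of 6 when total counts or lane reads set the scale, while all 6 ratios stayed above 1 under each scaling. RFC3 rested on forward reads, at 1.33 (1.16 to 1.54), since its reverse reads gave 0.982 (0.847 to 1.14). RFC4 rested on reverse reads, at 1.27 (1.02 to 1.59), since its forward reads gave 1.10 (0.885 to 1.36). POL30 shares 584 of its 777 bases with YBR089W, whose ratio was 1.60 (1.42 to 1.81), so their reads cannot be separated. RFC5 and POL30 are neighbours on chromosome II, 160 bases apart in the files' coordinates.

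RPA and the lagging strand enzymes stood near 1. RFA1, the large RPA subunit that holds single-stranded DNA, had 920 reads in tra1-L3733A and 1025 in TRA1, a ratio of 1.11 (1.02 to 1.22). RFA2 was at 0.920 (0.833 to 1.02) and RFA3 at 1.002 (0.873 to 1.15). RAD27, the flap endonuclease that trims Okazaki fragments, had 387 reads in tra1-L3733A and 555 in TRA1, at 0.866 (0.758 to 0.987). CDC9, the ligase that seals them, had 654 reads in tra1-L3733A and 734 in TRA1, at 1.11 (0.994 to 1.23). With TMM scaling the RFA1 interval lay just above 1, the RAD27 interval just below it, and the CDC9 interval just held it. When total counts or lane reads set the scale, 0 RPA intervals lay above 1 and 1 lay below it.

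Levels per length differed between roles in both libraries. On the scale of CPM (counts scaled to a library size of 1e6) per kilobase of ORF span, the median of the members was 27.6 in tra1-L3733A and 25.5 in TRA1. The 3 highest levels in both libraries were those of RFA3, POL30 and RFA2, RFA3 with 107.1 in tra1-L3733A and 106.9 in TRA1, POL30 with 108.3 in tra1-L3733A and 75.7 in TRA1, and RFA2 with 77.1 in tra1-L3733A and 83.8 in TRA1. By median the loading and firing factors were the least abundant group, at 8.53 to 19.4 CPM per kilobase in tra1-L3733A and 9.51 to 23.7 in TRA1. These ranges overlapped those of other roles. Members of a complex were not level with each other, although the ring holds equal numbers of each MCM protein. MCM3 was 2.58 times as abundant as MCM2 in tra1-L3733A (73.6 and 28.5 CPM per kilobase) and 2.65 times in TRA1 (58.5 and 22.1). Coverage along an ORF may be uneven, and that was not tested here. ORC genes ran from 11.6 to 23.2 CPM per kilobase in tra1-L3733A and from 10.8 to 22.3 in TRA1, below all MCM genes in tra1-L3733A and below all but MCM2 in TRA1. Over the 42 genes, the log2 ratio and the log2 level in TRA1 had a Pearson correlation of 0.30 and a Spearman correlation of 0.33, against -0.02 for both over 5681 tested ORFs. Both measures use the TRA1 count.

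**Figure D2:**
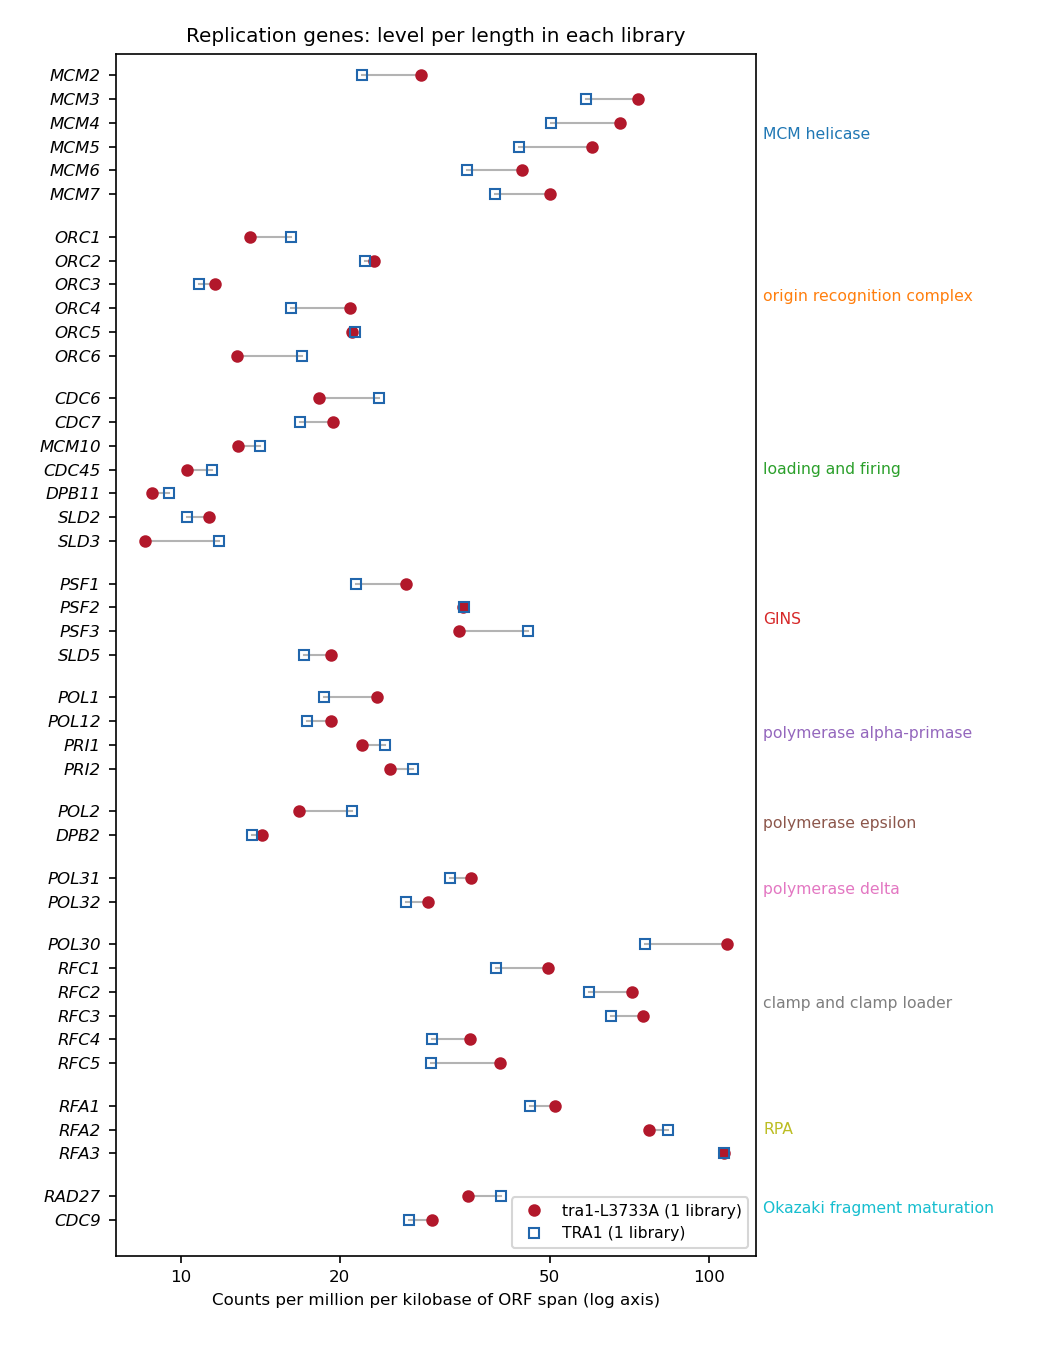
Level of each gene in CPM per kilobase of ORF span (log axis) in the tra1-L3733A library (filled circles) and the TRA1 library (open squares), grouped by role. The circles of all 6 MCM genes lie to the right of the squares. The loading and firing genes, between 8.53 and 23.7, are lowest by median and overlap other roles.

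Forward and reverse reads, counted apart, gave 2 readings of each ratio from the same libraries. Both lay on the same side of 1 for 33 of 42 genes, a count that was not made over all tested ORFs. For the 6 MCM genes the forward ratios ran from 1.19 to 1.40 and the reverse ratios from 1.20 to 1.41, and every interval of both directions lay above 1. The forward and reverse intervals did not overlap for 2 members, POL2 and RFC3, and for 2.50% of all tested ORFs. The 9 genes whose directions lay on opposite sides of 1 were ORC5, CDC45, DPB11, SLD2, PSF2, SLD5, PRI2, RFC3 and RFA3, and of these RFC3 alone had an interval on all reads that left out 1.

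**Figure D3:**
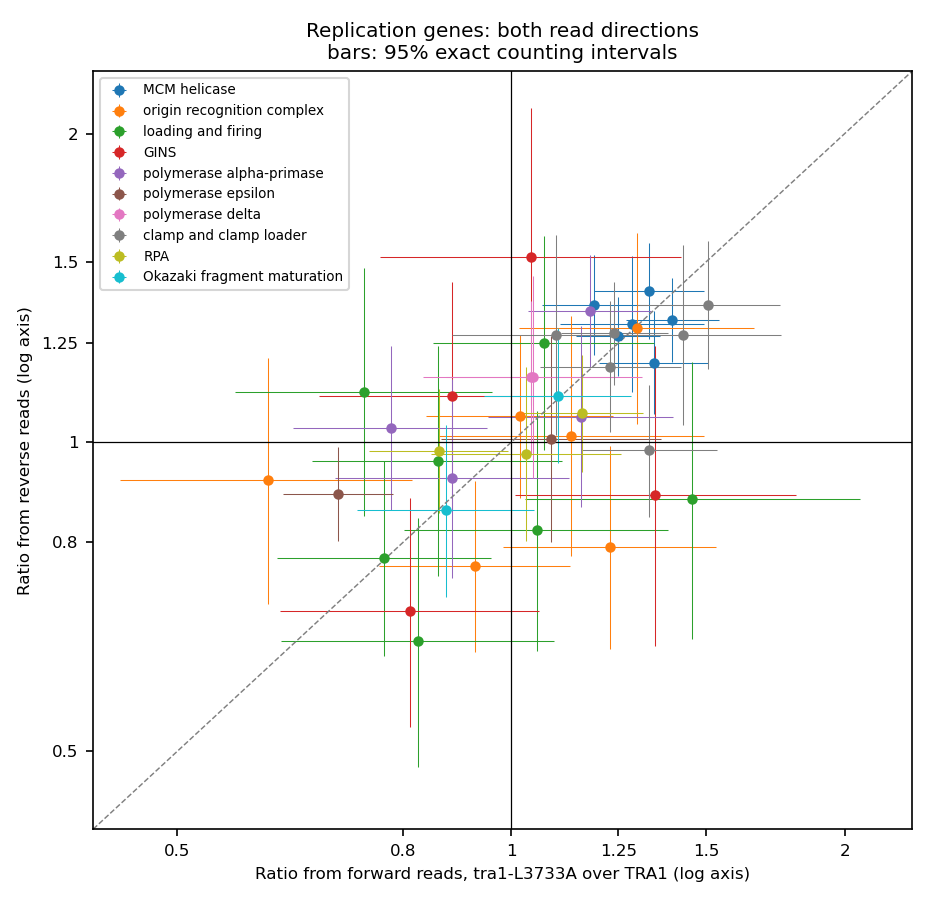
Ratio of tra1-L3733A over TRA1 from forward reads (x axis) against that from reverse reads (y axis), both on log axes, with 95% exact counting intervals as bars and the dashed line marking equal ratios. The MCM genes (blue) form a tight set above 1 on both axes, while genes with few reads spread to every side.

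The promoters were searched for sequence elements that the choice of genes did not use. Both were known beforehand as elements of G1/S genes, which many members are, so their presence is no independent result. The window ran from 250 bases before the start codon to 50 bases from it on, in the R64 genome and RefSeq annotation, matched by identifier for all 42 genes, and both strands were searched. ACGCGT, the element bound by MBF and identical on both strands, was in 17 of 42 promoters (40.5%), against 184 of 6001 promoters of all coding genes (3.07%). CNCGAAA, the element of SBF, was in 13 of 42 (31%) and in 829 of 6001 (13.8%). ACGCGT or CNCGAAA was in 25 of 42 (59.5%) and in 981 of 6001 (16.3%), and 17 members held neither. The elements overlapped in 1 member promoter, that of POL30. ACGCGT was in 3 of 4 polymerase alpha-primase genes, in both RAD27 and CDC9, in both members of polymerase epsilon and in both of polymerase delta, but in 0 of 6 MCM and 0 of 6 ORC genes. CNCGAAA was in 5 of 6 MCM genes and in 0 of 6 ORC genes. These matches describe letters in a window and show no binding.

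The ratios of members with and without ACGCGT covered much the same range, from -0.43 to 0.52 with it and from -0.46 to 0.45 without it on the log2 scale. The 17 members with it had a median log2 ratio of 0.14, with 10 above 0, and the 25 members without it had 0.20, with 17 above 0. Over all tested ORFs the median was 0.01 with the element and -0.004 without it. The 4 promoters below hold ACGCGT and have the largest log2 ratios, by size, among such members, POL30 above 0 and PSF3, CDC6 and POL2 below it, so they show the same element before genes on either side of 1. They are POL30 (chrII:425717-426016, minus strand), PSF3 (chrXV:48614-48913, plus strand), CDC6 (chrX:69088-69387, plus strand) and POL2 (chrXIV:147962-148261, plus strand), all in R64. Each is written 5′ to 3′ on the coding strand, with ACGCGT in capitals and, in CDC6, also the Mcm1 pattern described in the next paragraph.
POL30: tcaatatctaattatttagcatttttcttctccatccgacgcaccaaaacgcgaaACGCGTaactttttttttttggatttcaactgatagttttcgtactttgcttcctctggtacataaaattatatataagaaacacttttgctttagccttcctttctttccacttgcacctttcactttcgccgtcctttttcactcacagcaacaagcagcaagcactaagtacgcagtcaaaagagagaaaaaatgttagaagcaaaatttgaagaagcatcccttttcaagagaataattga
PSF3: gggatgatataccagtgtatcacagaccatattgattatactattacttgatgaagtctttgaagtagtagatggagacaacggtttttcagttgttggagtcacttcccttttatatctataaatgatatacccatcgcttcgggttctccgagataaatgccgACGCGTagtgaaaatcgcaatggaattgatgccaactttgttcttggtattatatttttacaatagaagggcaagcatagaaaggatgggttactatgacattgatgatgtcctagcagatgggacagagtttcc
CDC6: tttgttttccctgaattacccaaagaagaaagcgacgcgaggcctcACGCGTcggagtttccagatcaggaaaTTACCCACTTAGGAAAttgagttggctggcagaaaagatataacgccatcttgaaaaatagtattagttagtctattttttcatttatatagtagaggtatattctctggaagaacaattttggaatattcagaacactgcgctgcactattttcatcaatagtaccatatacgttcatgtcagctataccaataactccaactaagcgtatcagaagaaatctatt
POL2: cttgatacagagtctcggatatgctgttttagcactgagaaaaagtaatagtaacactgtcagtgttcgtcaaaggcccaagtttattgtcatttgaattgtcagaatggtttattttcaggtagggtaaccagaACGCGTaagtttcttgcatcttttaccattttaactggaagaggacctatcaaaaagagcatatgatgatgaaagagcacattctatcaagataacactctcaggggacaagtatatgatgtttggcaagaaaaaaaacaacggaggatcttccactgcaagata

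A longer pattern, the early cell cycle box through which Mcm1 acts at the end of mitosis, was searched on both strands after the results above were known. It was taken as TTNCCC and AGGAAA with NNTN between them. It was in 3 of 42 member promoters and in 6 of 6001 promoters of all coding genes (0.10%), and it overlapped neither other element in the members. Some MCM genes and CDC6 were already known to peak through Mcm1, so these matches are no independent result. The 3 members were MCM3 (chrV:86745-86774), MCM5 (chrXII:691394-691423) and CDC6 (chrX:69154-69183), all on plus-strand genes in R64. The sites are shown because these genes share the pattern and differ in ratio. Capitals mark the 16 bases of the pattern, which in MCM3 lies on the opposite strand.
MCM3: aattactTTTCCTAAATGGGTAAaaactcg
MCM5: tggcgtgTTTCCCTTTTAGGAAAagtgatt
CDC6: caggaaaTTACCCACTTAGGAAAttgagtt

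MCM3 and MCM5 had ratios of 1.26 and 1.37 and CDC6 of 0.770, so genes with this pattern lay on both sides of 1. The pattern lies 185 bases before the start codon in MCM3, 154 in MCM5 and 177 in CDC6, counted from its first base. No match was found in the windows of MCM2, MCM4, MCM6 or MCM7, which says only that these letters are not there. Of the other 3 genes with the pattern, RVB1 and HST4 are neighbours, RVB1 was at 0.994 (0.932 to 1.06), HST4 at 0.727 (0.567 to 0.929) and STE2 at 1.07 (1.02 to 1.13).

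Other replication genes, outside the 42, lay on both sides of 1. Of 27 such genes, 2 were lower and 0 higher, against 5.46% and 2.80% of all tested ORFs. Their median log2 ratio was -0.01, and 13 lay above 0, against 49.6%. Intervals lay above 1 for 7 and below 1 for 10, against 24.2% and 25.5%. CTF8, a subunit of an alternative clamp loader, had 94 reads in tra1-L3733A and 223 in TRA1, a ratio of 0.523 (0.407 to 0.669). Its partners in that loader did not share this direction. DCC1 was at 1.27 (1.09 to 1.48), and CTF18 was at 1.07 with an interval that held 1. SLD7, the partner of Sld3, had 108 reads in tra1-L3733A and 208 in TRA1, a ratio of 0.645 (0.506 to 0.817), so SLD3 and SLD7 both lay below 1. Among the 3 with most reads, POL3, the catalytic subunit of polymerase delta, was at 1.20 (1.10 to 1.31), an interval that overlaps those of its partners POL31 and POL32. The topoisomerase gene TOP2 was at 0.778 (0.712 to 0.849) and the forkhead factor gene FKH2 at 0.771 (0.705 to 0.842). The difference between these 27 genes and the MCM or clamp genes was not tested.

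Among 17 ribonucleotide reductase and checkpoint genes, RNR4, a reductase subunit that makes DNA precursors, was higher at 1.55 (1.51 to 1.60) and 0 were lower. Short of the threshold, RNR1 was at 1.49 (1.44 to 1.55), RNR2 at 1.37 (1.32 to 1.41) and RNR3 at 1.28 (1.07 to 1.54). SML1, also in this list, was at 1.44 (1.36 to 1.52). Intervals lay above 1 for 6 of the 17 and below 1 for 3, against 24.2% and 25.5% of all tested ORFs. For this list and those below, the shares over all tested ORFs with TMM scaling were 2.80% higher and 5.46% lower. Total counts or lane reads as the scale put RNR4 at 1.45 or 1.46, just short of the threshold, and then RAD9, a checkpoint adaptor gene at 0.692 (0.609 to 0.784) with TMM, passed as lower at 0.646 or 0.650. Among 9 cyclin genes and CDC28, the S phase cyclin gene CLB6 was higher at 2.48 (1.51 to 4.19) on 50 reads in tra1-L3733A and 25 in TRA1, and 0 were lower. Of 8 core histone genes 0 passed, and intervals lay above 1 for 3 and below 1 for 4, against 24.2% and 25.5% of all tested ORFs. The largest log2 ratios by size were those of the H2B genes HTB2 and HTB1, at 1.36 (1.28 to 1.45) and 1.30 (1.24 to 1.35), but the copies of a histone gene are near identical and reads may be split between them. Of 6 genes for G1/S transcription factors 0 passed with TMM scaling, with SWI4, the DNA-binding subunit of SBF, at 0.679 (0.600 to 0.768) and MBP1, that of MBF, at 0.738 (0.646 to 0.841). Forward reads put MBP1 at 0.886 (0.735 to 1.07), an interval that held 1, and reverse reads at 0.613 (0.506 to 0.742). SWI4 did pass, as lower, when total counts or lane reads set the scale. Median log2 ratios were 0.03 for the reductase and checkpoint genes pooled, 0.21 for the cyclins, -0.08 for the histones and -0.23 for the transcription factors. Those of the MCM genes and of the clamp and its loader were 0.36 and 0.30. The pooled median does not describe the reductase genes named above.

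**Figure D4:**
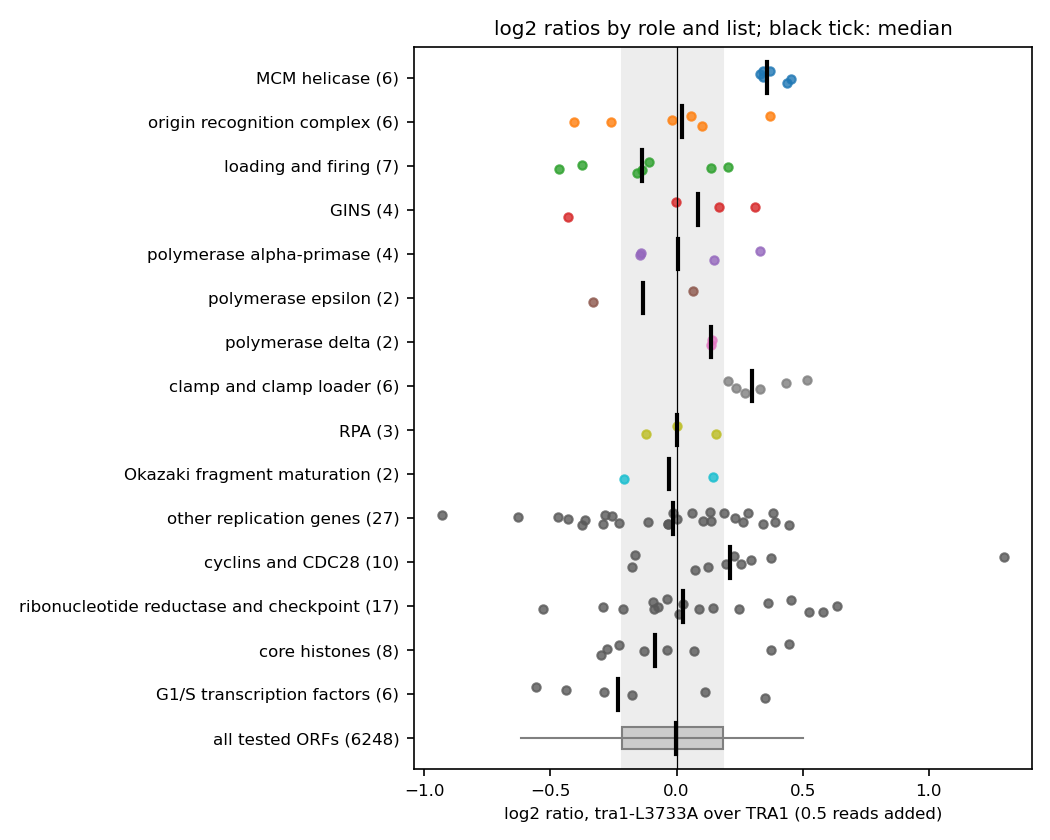
log2 ratio of tra1-L3733A over TRA1 for each gene (points), by role and by list, with the median as a black tick; the lowest row shows all tested ORFs with a box for the middle 50% and a line for percentiles 5 to 95, and the grey band repeats the box. All MCM and all clamp and clamp loader points lie to the right of the band, which ends at 0.19, and every other role has points inside the band or to its left.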

How the data were processed

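For each of 6603 ORFs the authors deposited raw read counts in 2 columns, fr and rr per the file headers, which were taken as forward and reverse read directions and summed. Per the submitters' processing notes, reads were handled with Novoalign. The sources used here give no genome build, annotation or counting rule, and do not say whether strand was kept, so reads of overlapping ORFs are not separated. Reads were 35 nucleotides long and came from 1 lane per library, per the labels' protocols. Only 5 of the 42 members have the same start and end in R64, so R64 was used by identifier, for promoters and GC content, and no coordinate was combined.

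Library sizes were scaled by TMM with edgeR 4.0.16 in R 4.3.3. The factor was 0.967 for tra1-L3733A and 1.035 for TRA1. With 1 library per strain no model was fitted and no p-value is given. Ratios have exact (Clopper-Pearson) counting intervals (scipy 1.17.1). Reads carried no molecular identifiers, so they need not be independent molecules. log2 ratios had 0.5 reads added to each count. The interval and call code was tested on simulated counts. Members, lists, roles and thresholds were chosen with earlier results of these data known. All members are named. From the other replication genes those past the rule and the 3 with most reads are named, and from each other list those past the rule or, where there were none, the 2 with the largest log2 ratio by size. RVB1, HST4 and STE2, the ORC, GINS, MCM and clamp contrasts and the short sites were chosen after their values were seen. So were RNR1, RNR2, RNR3, SML1, CTF18 and DCC1, which that naming rule does not cover.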

Additional observations from a re-analysis of the deposited data

How the results depend on the processing

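The counts of 0 members higher and 0 lower did not change when total counts, lane reads or DESeq2 1.42.0 size factors set the scale. Nor did they with the length trend or (an alternative chosen after seeing the data) the GC trend removed. Other settings could not change them. Every member had more than 100 reads in each library, so neither no minimum of reads nor at least 100 touched a member. Leaving out overlapping ORFs or asking for a ratio of 2 can only remove calls. With forward reads only, 1 member was higher (POL30) and 1 lower (ORC6), and with reverse reads only 1 was higher (PSF1) and 1 lower (SLD3), where 3.44% and 6.01% of ORFs tested on forward reads and 3.03% and 6.07% on reverse reads were higher and lower. At a ratio of at least 5/4, 11 members were higher, where 10.7% of tested ORFs were, and 5 lower, where 14.4% were. Scaling by total counts moved the median of all tested ORFs to -0.10 and that of the members to 0.04, with 24 log2 ratios above 0 in place of 27, while the share above 0 of all tested ORFs was 36.2% in place of 49.6%. A change of scale shifts every log2 ratio alike, so the gap between the members' median and that of all tested ORFs cannot change. It was 0.14 under each scaling, and 0.09 with reverse reads only. CLB6 had too few reads for the 100-read minimum.

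No paired analysis was possible because there is 1 library per strain, and no library can be left out for the same reason. The median half-width of the members' intervals was 0.20 on the log2 scale, so smaller differences of a typical member were not detectable at this depth, and the spread between cultures is not known from these files.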
